A study of Homo sapiens with 9 samples.

Results

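The 50 genes described here encode the proteins that license replication origins, unwind the DNA and copy it at the fork. They were chosen by name as a list of DNA replication origin and fork genes, and all 50 were measured, by 133 probe sets that the array annotation assigns to a single gene, out of 18132 genes with such a probe set. They were sorted by role into the helicase (12 genes), the sliding clamp and its loader (6), the replicative polymerases and primase (9), licensing and firing of origins (11), single-strand binding and Okazaki fragment maturation (5), fork protection (4) and nucleotide supply (3).

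The study used NCI-H1993, a human lung adenocarcinoma cell line that transcribes TDRD9, which encodes a Tudor domain RNA helicase of the germline piRNA pathway. Cells were transfected for 72 hours, using Oligofectamine, with siTDRD9-1, with siTDRD9-2, or with a control siRNA (siControl), and each of the 3 groups consisted of 3 independent cultures, so that the comparisons cover 9 arrays in all. All groups therefore share the cell line, the transfection and the time, and the study has 1 cell line and no untransfected cells. RNA was hybridised to Affymetrix PrimeView arrays, and the deposited values are log2 signals after Robust Multichip Average (RMA) normalisation. The extraction text of the labels names another line, a derivative of HCT cells, and their labelling text a whole-transcript kit, whereas the methods describe H1993 cells and end-labelled single-stranded DNA.

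Replication starts at origins bound by the origin recognition complex, ORC1 to ORC6, which with CDC6 and CDT1 loads the MCM2 to MCM7 ring onto DNA while CDKs are low in G1. The kinase CDC7 with DBF4 then fires the origin, CDC45 and GINS turn the ring into the active helicase, and polymerases alpha, delta and epsilon copy the strands with the help of RPA, the clamp PCNA and its loader RFC. Many of these genes are transcribed toward S phase under E2F factors, so their transcript level is widely used as a sign of proliferation, and in bulk RNA fewer S phase cells and less RNA per cell cannot be told apart.

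The promoters of these genes are shown first because 22 of the 44 genes with a promoter window held an E2F-type word there, against 1090 of all 27305 genes (3.99%), a feature that their choice by name did not use. RefSeq promoter windows (GRCh38.p14, from 250 bases before to 50 bases after the start site, 300 bases) were found for 44 of the 50 genes, 56 windows in all. The words searched on both strands were TTTCCCGC, TTTCGCGC, TTTGCCGC and TTTGGCGC, and 1 stretch read on both strands can hold overlapping words. They stood in 22 of the 56 windows (39.3%), against 1164 of all 35116 windows (3.31%) and 847 of the 20403 windows of genes on the array (4.15%). CCAAT, on either strand, stood in 31 of the 56 windows (55.4%, against 34.6% of all windows), and the CHR-type word TTTGAA in 2 of them (3.57%, against 15.2%). A word is a description of the letters and not a shown binding site.

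Promoters of 4 genes follow, 2 with E2F-type words (MCM6, which rose with siTDRD9-1, and POLE2, which differed between the siRNAs) and 2 without (RRM1 and RFC5, which fell with siTDRD9-1), all 5′ to 3′ along the gene, with E2F-type, CCAAT and CHR-type words in capitals. The 4 are examples: CDT1, with a word, fell with siTDRD9-2, and RPA1, without one, rose with both siRNAs. MCM6 lies on the minus strand at chr2:135876394-135876693, and its 4 E2F-type words form 2 overlapping pairs, with first bases at -152 and -148 and at -90 and -86 from the start site, beside 2 CCAAT words on the opposite strand.
MCM6: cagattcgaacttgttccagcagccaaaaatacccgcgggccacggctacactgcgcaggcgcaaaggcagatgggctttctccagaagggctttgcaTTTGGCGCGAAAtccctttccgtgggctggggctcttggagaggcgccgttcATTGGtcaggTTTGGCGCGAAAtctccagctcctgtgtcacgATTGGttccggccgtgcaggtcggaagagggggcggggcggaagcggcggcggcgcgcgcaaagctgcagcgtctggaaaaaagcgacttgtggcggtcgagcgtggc
POLE2, minus strand, chr14:49688165-49688464, holds 1 E2F-type word on the opposite strand, with its first base at -5.
POLE2: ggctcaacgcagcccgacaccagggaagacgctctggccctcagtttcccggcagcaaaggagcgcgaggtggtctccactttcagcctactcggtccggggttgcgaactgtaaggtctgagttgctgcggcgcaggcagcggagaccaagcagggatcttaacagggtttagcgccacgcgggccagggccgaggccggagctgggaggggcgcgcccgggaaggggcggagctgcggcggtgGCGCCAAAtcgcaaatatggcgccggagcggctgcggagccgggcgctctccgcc
RRM1, plus strand, chr11:4094435-4094734, holds a CCAAT word with its first base at -28 and a CHR-type word on the opposite strand at -199.
RRM1: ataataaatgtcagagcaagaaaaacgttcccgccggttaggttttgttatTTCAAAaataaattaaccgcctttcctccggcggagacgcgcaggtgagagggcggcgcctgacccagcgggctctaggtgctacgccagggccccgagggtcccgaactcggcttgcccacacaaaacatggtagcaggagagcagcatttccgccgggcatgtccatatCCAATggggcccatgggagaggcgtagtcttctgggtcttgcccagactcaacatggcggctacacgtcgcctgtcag
RFC5, plus strand, chr12:118016453-118016752, holds 1 CCAAT word on the opposite strand at -239.
RFC5: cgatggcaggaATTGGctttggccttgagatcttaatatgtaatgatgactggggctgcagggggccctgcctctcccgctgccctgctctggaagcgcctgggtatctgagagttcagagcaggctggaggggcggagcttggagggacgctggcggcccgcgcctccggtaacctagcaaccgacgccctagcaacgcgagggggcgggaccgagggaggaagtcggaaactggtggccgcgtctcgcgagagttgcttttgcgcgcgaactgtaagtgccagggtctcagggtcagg

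**Figure D1:**
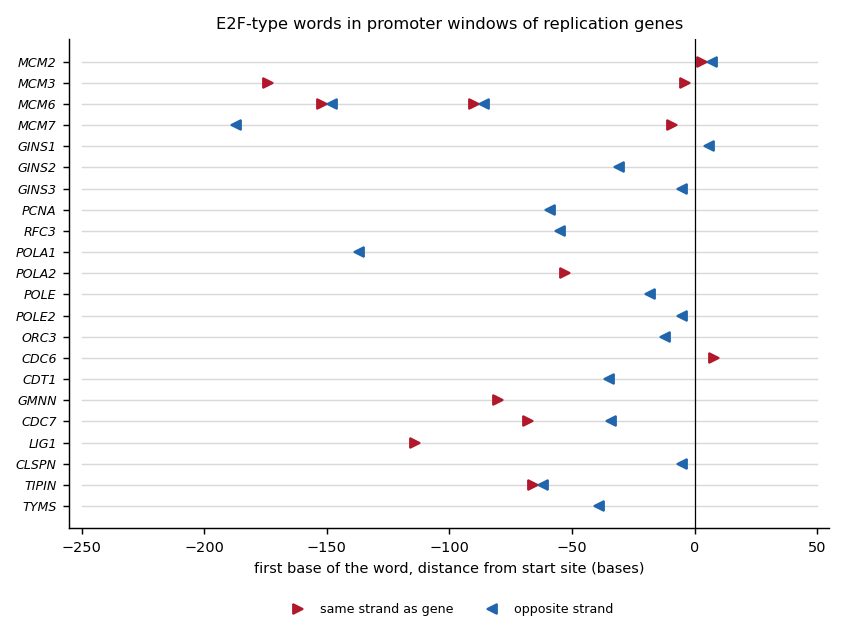
Each grey line is the promoter window of 1 of the 22 genes with an E2F-type word, the horizontal axis is the distance in bases of the word's first base from the start site, and arrowheads give the strand. The 30 words lie between -187 and 8 from the start site, and MCM6 holds 4 of them.

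Genes with and without an E2F-type word had close median differences from siControl. With siTDRD9-1 the median log2 difference was -0.09 over the 22 genes with a word and -0.10 over the 22 without. With siTDRD9-2 the medians were -0.06 over the genes with a word and -0.11 over those without. At a false discovery rate (FDR) of 0.01, 1 gene with a word and 4 without passed in the siTDRD9-1 comparison, and 1 with a word and 2 without in the siTDRD9-2 comparison. Of all genes, 1.25% were higher and 2.8% lower at this FDR with siTDRD9-1, and 1.32% were higher and 3.03% lower with siTDRD9-2. Both comparisons share the siControl arrays.

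TDRD9 transcript was checked first, because it tests the labels. Its probe set read 4.94, 4.64 and 4.28 in siTDRD9-1 cultures, 6.12, 6.12 and 6.05 in siTDRD9-2 cultures and 6.65, 6.80 and 6.93 in siControl cultures, with no overlap between any of the groups. The signal left was 22.1% with siTDRD9-1 (log2 difference -2.18, SE 0.144, limma adjusted p = 2.22e-05) and 61.7% with siTDRD9-2 (-0.70, SE 0.144, adjusted p = 0.00931). The siTDRD9-2 call was lost without siTDRD9-1 replicate 2, or without any 1 of the siTDRD9-2 or siControl arrays (adjusted p = 0.00227 to 0.0469 over the 9 arrays left out in turn). Between the siRNAs TDRD9 was lower with siTDRD9-1 by -1.48 (adjusted p = 0.000426), and an exact two-sided permutation test of 3 arrays against 3 gave p = 0.1 for each comparison, the smallest it allows.

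Arrays of 1 group correlated at r = 0.994 to 0.998 over probe sets. All 7 epithelial markers stood above the median gene of the arrays, as did 3 of 9 lung adenocarcinoma markers (MUC1, KRT7 and NAPSA), 1 of 7 measured colorectal markers (CDX2), 2 of 4 measured blood cell markers (CD68 and CD14) and 0 of 6 fibroblast markers, while the lung markers NKX2-1 (log2 6.18) and SFTPB (5.20) were below it. The mean over the epithelial list was 11.85 to 11.93 in siTDRD9-1, 11.90 to 11.91 in siTDRD9-2 and 11.75 to 11.85 in siControl arrays. The mean over the colorectal list was 4.24 to 4.44 in siTDRD9-1, 4.30 to 4.35 in siTDRD9-2 and 4.34 to 4.38 in siControl arrays. For the lung list it was 6.25 to 6.52 in siTDRD9-1, 6.25 to 6.35 in siTDRD9-2 and 6.34 to 6.40 in siControl arrays, and for fibroblast markers 3.93 to 4.08 in siTDRD9-1, 3.81 to 3.91 in siTDRD9-2 and 4.02 to 4.05 in siControl arrays. For blood cell markers it was 6.21 to 6.34 in siTDRD9-1, 5.86 to 5.95 in siTDRD9-2 and 6.04 to 6.29 in siControl arrays, and the part of these levels in the results was not tested. Single markers passed at an FDR of 0.01. ELF3, an epithelial transcription factor, was higher with both siRNAs, the differences being 0.47 for siTDRD9-1 (adjusted p = 0.00654) and 0.76 for siTDRD9-2 (adjusted p = 0.000374). The fibroblast marker LUM, with a mean log2 signal of only 3.30, differed by -0.82 with siTDRD9-1 (adjusted p = 0.00305) and -0.72 with siTDRD9-2 (adjusted p = 0.00538). CD68, a lysosomal protein used as a macrophage marker, differed by -0.84 with siTDRD9-2 (adjusted p = 0.00115) and was higher with siTDRD9-1 than with siTDRD9-2 by 1.01 (adjusted p = 0.000989). The poly-A spike-ins, RNAs added before labelling, differed with the groups: their 3′ signal exceeded their 5′ signal by 1.00 to 1.17 in siTDRD9-1, 0.99 to 1.16 in siTDRD9-2 and 1.25 to 1.57 in siControl arrays. Their mean log2 signal was 7.38 to 7.72 in siTDRD9-1, 7.59 to 7.77 in siTDRD9-2 and 8.22 to 8.48 in siControl arrays. The hybridisation controls averaged 9.86 to 9.92 in siTDRD9-1, 9.83 to 10.03 in siTDRD9-2 and 9.55 to 9.63 in siControl arrays, and the 3′ probe set of 18S ribosomal RNA read 13.08 to 13.69 in siTDRD9-1, 13.16 to 13.87 in siTDRD9-2 and 11.29 to 12.36 in siControl arrays. Sample handling and siRNA therefore cannot be told apart in the comparisons with siControl, whereas arrays of both TDRD9 siRNAs overlapped in all 4 measures.

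The median difference of the replication genes from siControl was small, and more of them were lower than higher. Differences were positive for 36% of them with siTDRD9-1 (all genes 44.1%) and 26% with siTDRD9-2 (all genes 36.9%). The median log2 difference over the 50 genes was -0.09 with siTDRD9-1 (all genes -0.03) and -0.07 with siTDRD9-2 (all genes -0.06), each gene read at the brightest of its single-gene probe sets. Differences ran between -0.96 (RFC5) and 0.51 (RPA1) with siTDRD9-1, and between -0.57 (GINS4) and 0.47 (RPA1) with siTDRD9-2. The 95% interval lay within a 1.5-fold change either way for 39 of 50 genes with siTDRD9-1 (78%, against 85.4% of all genes) and 43 of 50 with siTDRD9-2 (86%, against 84%). It lay within a 2-fold change for 49 genes with siTDRD9-1 (98%, against 98.2% of all genes) and 50 with siTDRD9-2 (100%, against 98.1%).

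Few genes passed the test. At an FDR of 0.01 by limma, with p-values adjusted over all 49293 probe sets, 2 of the 50 genes rose and 3 fell with siTDRD9-1, or 4% and 6%, against 1.25% and 2.8% of all genes. With siTDRD9-2, 1 gene rose and 3 fell, or 2% and 6%, against 1.32% and 3.03% of all genes. With the further demand of a 2-fold change, 0 of the 50 genes passed with either siRNA (background 0.452% of genes with siTDRD9-1 and 0.408% with siTDRD9-2), while an unadjusted p under 0.05 was reached by 17 genes with siTDRD9-1 (34%, against 23% of all genes) and 18 with siTDRD9-2 (36%, against 23.5%). At a looser FDR of 0.05, 3 genes were higher and 8 lower with siTDRD9-1, against 2.94% and 7.4% of all genes, and 2 were higher and 6 lower with siTDRD9-2, against 3.67% and 7.57%. The 3 siTDRD9-1 arrays lay entirely above the siControl arrays for 6 genes and entirely below for 17, or 12% and 34% against 8.76% and 18.9% of all genes. The siTDRD9-2 arrays lay entirely above for 5 genes and below for 17, or 10% and 34% against 9.57% and 20.2% of all genes. The mean over the 50 genes was 9.151 to 9.193 in siTDRD9-1, 9.156 to 9.192 in siTDRD9-2 and 9.189 to 9.335 in siControl arrays, so that each knockdown group overlapped siControl through siControl replicate 1.

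With the 3′ minus 5′ slope of the spike-ins as a covariate, 0 of the 50 genes passed against siControl by limma, and an unadjusted p under 0.05 was reached by 7 genes with siTDRD9-1 and 3 with siTDRD9-2. Every siControl array had a steeper slope than every knockdown array, so the covariate largely coincides with these comparisons. The median SE of the 50 genes with siTDRD9-1 was 0.164 with it and 0.0944 without. The lost calls therefore cannot show what part the slope had. The share of all genes passing in this fit was not counted. With siTDRD9-1 the covariate left RFC5 at -0.89 (adjusted p = 0.0996), RRM1 at -0.77 (adjusted p = 0.0903), WDHD1 at -0.58 (adjusted p = 0.343), RPA1 at 0.68 (adjusted p = 0.129) and MCM6 at 0.45 (adjusted p = 0.485). With siTDRD9-2 it left GINS4 at -0.42 (adjusted p = 0.691), POLD2 at -0.39 (adjusted p = 0.599), RPA1 at 0.66 (adjusted p = 0.2) and CDT1 at -0.20 (adjusted p = 1), and TDRD9 itself, at -2.24 with siTDRD9-1, had an adjusted p of 0.0262. TDRD9 with siTDRD9-2, at -0.76, did not pass with the covariate either (adjusted p = 0.581). Between the siRNAs, whose arrays were alike in this slope, RRM1 (-0.68, adjusted p = 0.00278) and WDHD1 (-0.72, adjusted p = 0.00603) still passed with it, and RFC5, POLD2 and POLE2 did not (adjusted p = 0.0149, 0.0178 and 0.0178).

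**Figure D2:**
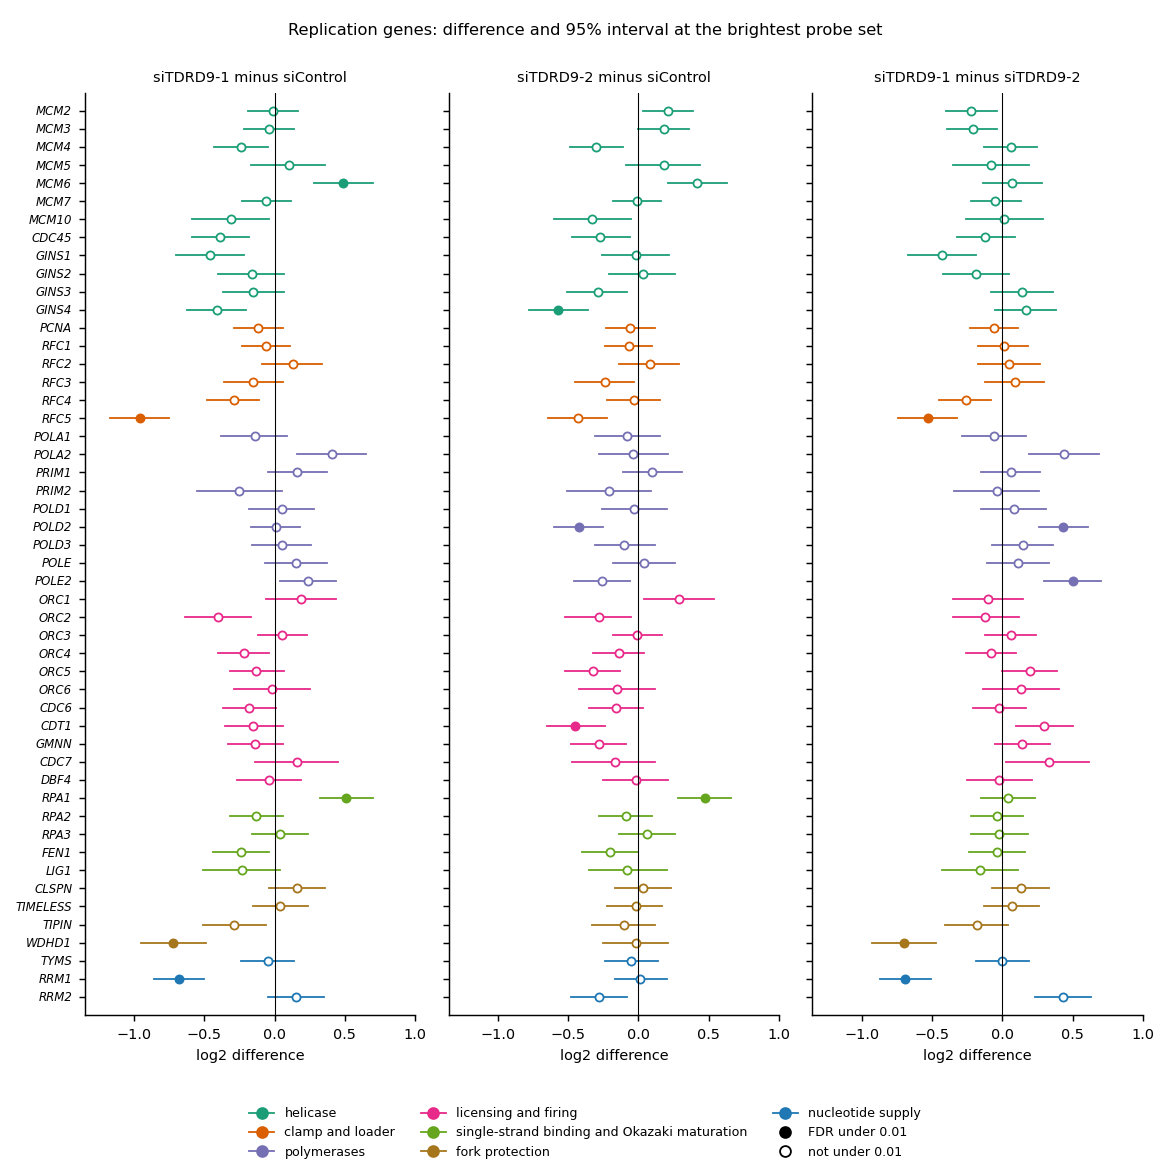
Points are log2 differences and bars 95% intervals of the 50 genes at their brightest probe set, coloured by role, for siTDRD9-1 minus siControl, siTDRD9-2 minus siControl and siTDRD9-1 minus siTDRD9-2. Filled points passed an FDR of 0.01, and the farthest from 0 is RFC5 at -0.96 with siTDRD9-1.

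**Figure D3:**
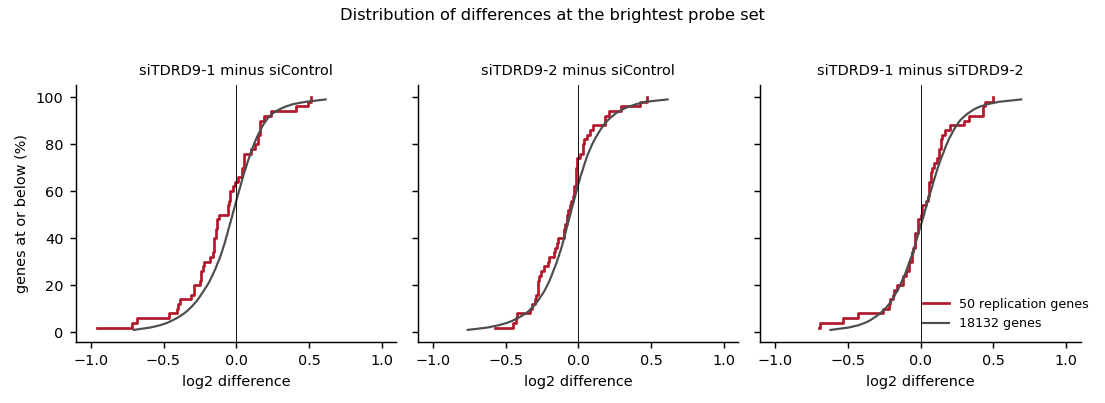
Curves give the percentage of genes at or below each log2 difference, in red for the 50 replication genes and in grey for 18132 genes (1st to 99th percentile), in the same 3 comparisons. The red curves have medians of -0.09, -0.07 and 0.00, and the grey ones of -0.03, -0.06 and 0.02.

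In the helicase, which unwinds the parental strands, MCM6 rose and GINS4 fell, each passing with 1 siRNA. The other ring subunits, MCM2, MCM3, MCM4, MCM5 and MCM7, did not pass in either comparison at their brightest probe sets. The probe sets of MCM3, MCM4 and MCM7, singled out after their values were seen, were spread widely. With siTDRD9-1 they gave -0.12 to 0.22, -0.24 to 0.39 and -0.06 to 0.42 in this order. With siTDRD9-2 they gave 0.09 to 0.57, -0.30 to 0.38 and -0.01 to 0.54, and none of them passed. The median over the 12 helicase genes was -0.16 with siTDRD9-1 and -0.02 with siTDRD9-2.

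MCM6, a subunit of the hexameric ring, read 10.55, 10.75 and 10.64 in siTDRD9-1 cultures, 10.54, 10.64 and 10.56 in siTDRD9-2 cultures and 10.18, 10.02 and 10.27 in siControl cultures. Both knockdown groups lay above every siControl array and overlapped each other. The difference was 0.49 with siTDRD9-1 (SE 0.0959, adjusted p = 0.00754) and 0.42 with siTDRD9-2 (adjusted p = 0.0146), and siTDRD9-1 minus siTDRD9-2 was 0.07 with a 95% interval of -0.14 to 0.28. The siTDRD9-1 call was lost without any 1 array but siTDRD9-2 replicate 3 (adjusted p = 0.00845 to 0.0416). A second probe set gave 0.51 with siTDRD9-1 and 0.61 with siTDRD9-2, and the last -0.23 with each, so that the probe sets of MCM6 disagreed in direction.

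GINS4, which encodes the SLD5 subunit of GINS, read 7.09, 7.27 and 7.28 in siTDRD9-1 cultures, 6.98, 7.11 and 7.07 in siTDRD9-2 cultures and 7.51, 7.62 and 7.75 in siControl cultures. All 6 knockdown arrays lay below the siControl arrays. It fell by 0.57 with siTDRD9-2 (SE 0.0962, adjusted p = 0.00295), and its difference with siTDRD9-1 was -0.41 (adjusted p = 0.0199). The siTDRD9-2 call was lost without siTDRD9-2 replicate 1 or 2 or siControl replicate 2 or 3 (adjusted p over the arrays left out in turn 0.00347 to 0.0165). A second probe set passed with siTDRD9-2 as well (-0.47, adjusted p = 0.00402), another gave -0.44 (adjusted p = 0.0124), and the dimmest, at a mean of 2.99, gave 0.01.

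CDC45 and GINS1 were among the genes nearest the threshold. CDC45, the helicase activator, read 8.15, 8.09 and 8.12 in siTDRD9-1 cultures, 8.19, 8.35 and 8.19 in siTDRD9-2 cultures and 8.36, 8.58 and 8.58 in siControl cultures. Both knockdown groups lay below siControl, yet the differences of -0.39 with siTDRD9-1 (adjusted p = 0.0224) and -0.27 with siTDRD9-2 (adjusted p = 0.0906) did not pass, and its 2 other probe sets gave -0.09 and 0.03 with siTDRD9-1. In the siTDRD9-2 comparison those probe sets were at 0.13 and 0.22, opposite to the brightest one. GINS1, the PSF1 subunit of GINS, read 10.37, 10.41 and 10.56 in siTDRD9-1 cultures, 10.99, 10.94 and 10.72 in siTDRD9-2 cultures and 10.74, 10.91 and 11.05 in siControl cultures. The siTDRD9-1 arrays were below all others, with differences of -0.46 against siControl (adjusted p = 0.0215) and -0.43 against siTDRD9-2 (adjusted p = 0.0406). MCM2, another ring subunit, passed at its dimmest probe set with siTDRD9-2 (0.54, adjusted p = 0.00245, against 0.25 with siTDRD9-1, adjusted p = 0.105), a probe set singled out after its values were seen.

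Among the clamp and its loader, RFC5 alone passed. The clamp itself, PCNA, read 11.31, 11.33 and 11.40 in siTDRD9-1 cultures, 11.41, 11.39 and 11.42 in siTDRD9-2 cultures and 11.42, 11.45 and 11.51 in siControl cultures, differences of -0.12 and -0.06 from siControl that did not pass (PCNA was singled out after its values were seen). The median over the 6 genes was -0.13 with siTDRD9-1 and -0.06 with siTDRD9-2, and RFC2 had the highest mean difference, 0.13 with siTDRD9-1 and 0.08 with siTDRD9-2.

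RFC5, a subunit of the pentameric clamp loader, read 8.58, 8.71 and 8.53 in siTDRD9-1 cultures, 9.24, 9.16 and 9.02 in siTDRD9-2 cultures and 9.54, 9.51 and 9.66 in siControl cultures. The 3 groups did not overlap, with siTDRD9-1 lowest and siControl highest. RFC5 fell by 0.96 with siTDRD9-1 (51.4% of the siControl signal, SE 0.095, adjusted p = 0.000161), a call kept without each of the 9 arrays in turn (adjusted p = 0.000164 to 0.00179). The difference with siTDRD9-2 was -0.43 (adjusted p = 0.0127), and RFC5 was lower with siTDRD9-1 than with siTDRD9-2 by -0.53 (adjusted p = 0.00817). This last call was lost without any 1 array but siTDRD9-2 replicate 3 (adjusted p = 0.0096 to 0.0411). Of its 3 other probe sets, a pair gave -0.66 (adjusted p = 0.000798) and -0.57 (adjusted p = 0.0113) with siTDRD9-1, whereas the third ran the other way, at 0.57 against siControl (adjusted p = 0.0331) and 0.81 against siTDRD9-2 (adjusted p = 0.0103).

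RFC3, another loader subunit, was singled out after its values were seen, because a dim probe set (mean 5.43) passed while its brightest did not. The dim one gave -0.64 with siTDRD9-1 (adjusted p = 0.00368) and 0.03 with siTDRD9-2, a difference between the siRNAs of -0.67 (adjusted p = 0.00486). The brightest gave -0.15 with siTDRD9-1 and -0.24 with siTDRD9-2.

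The polymerase and primase genes had a median of 0.05 with siTDRD9-1 and -0.08 with siTDRD9-2. Differences lay between -0.25 (PRIM2) and 0.41 (POLA2) with siTDRD9-1 and between -0.42 (POLD2) and 0.10 (PRIM1) with siTDRD9-2. Of these 9 genes 0 passed with siTDRD9-1, where POLA2 and POLE2 had an unadjusted p under 0.05, and 1 fell with siTDRD9-2.

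POLD2, the accessory B subunit of polymerase delta, read 11.47, 11.48 and 11.48 in siTDRD9-1 cultures, 11.01, 11.02 and 11.11 in siTDRD9-2 cultures and 11.43, 11.49 and 11.49 in siControl cultures. The siTDRD9-2 arrays lay below all the others, and siTDRD9-1 and siControl overlapped. POLD2 fell by 0.42 with siTDRD9-2 (SE 0.0798, adjusted p = 0.00571), its siTDRD9-1 difference was 0.01 (adjusted p = 0.976), and it was higher with siTDRD9-1 than with siTDRD9-2 by 0.43 (adjusted p = 0.00986). The first call was lost without siTDRD9-1 replicate 1, siTDRD9-2 replicate 1 or 2, or any siControl array (adjusted p = 0.00616 to 0.0308), and the last without any 1 of the 9 (0.0155 to 0.0441). The other probe set gave nearly the same values, -0.46 with siTDRD9-2 (adjusted p = 0.00308) and 0.45 between the siRNAs (adjusted p = 0.00707).

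POLE2, the B subunit of polymerase epsilon, read 9.12, 9.08 and 8.97 in siTDRD9-1 cultures, 8.51, 8.60 and 8.58 in siTDRD9-2 cultures and 8.70, 8.83 and 8.93 in siControl cultures. The siTDRD9-1 arrays were highest, the siTDRD9-2 arrays lowest, and the groups did not overlap. Neither difference from siControl passed (0.24, adjusted p = 0.134, with siTDRD9-1, and -0.26, adjusted p = 0.0877, with siTDRD9-2), but siTDRD9-1 minus siTDRD9-2 was 0.50 (SE 0.0909, adjusted p = 0.00909). That call was lost without any 1 of the 9 arrays (adjusted p = 0.0119 to 0.0481), and POLE2 has a single probe set.

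POLA2, the regulatory B subunit of polymerase alpha, read 8.06, 8.19 and 7.90 in siTDRD9-1 cultures, 7.40, 7.70 and 7.72 in siTDRD9-2 cultures and 7.74, 7.58 and 7.60 in siControl cultures. The siTDRD9-1 arrays were above the others, with differences of 0.41 against siControl (adjusted p = 0.0413) and 0.44 against siTDRD9-2 (adjusted p = 0.0426), which did not pass. PRIM2, the large primase subunit, had the lowest mean difference of the group at the brightest probe sets, -0.25 with siTDRD9-1 and -0.21 with siTDRD9-2, but its other probe set ran the other way, with 0.28 and 0.23, and neither passed.

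The licensing and firing genes had medians of -0.13 with siTDRD9-1 and -0.16 with siTDRD9-2, and CDT1 alone passed, with siTDRD9-2. Among the ORC genes, at their brightest probe sets, the differences lay between -0.40 (ORC2) and 0.19 (ORC1) with siTDRD9-1. With siTDRD9-2 they lay between -0.32 (ORC5) and 0.29 (ORC1), and none of these passed. An unadjusted limma p under 0.05 was reached by ORC2 and ORC4 with siTDRD9-1, and by ORC1, ORC2 and ORC5 with siTDRD9-2. Of all genes, 23% and 23.5% reached it in these comparisons. ORC1, which binds ATP in the complex, read 7.50, 7.66 and 7.50 in siTDRD9-1 cultures, 7.56, 7.85 and 7.54 in siTDRD9-2 cultures and 7.32, 7.23 and 7.53 in siControl cultures. ORC2 read 7.11, 7.19 and 6.83 in siTDRD9-1 cultures, 7.13, 7.16 and 7.20 in siTDRD9-2 cultures and 7.32, 7.47 and 7.54 in siControl cultures, below siControl in all 6 knockdown arrays. Its other probe sets gave -0.24 and -0.34 with siTDRD9-1, but 0.19 and -0.01 with siTDRD9-2. The probe sets of ORC5 also disagreed in direction, with -0.32 to 0.16 with siTDRD9-2 and -0.13 to 0.22 with siTDRD9-1.

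CDT1, which delivers the MCM ring to ORC, read 8.58, 8.62 and 8.58 in siTDRD9-1 cultures, 8.36, 8.31 and 8.21 in siTDRD9-2 cultures and 8.59, 8.83 and 8.80 in siControl cultures. The siTDRD9-2 arrays lay below all others, while siTDRD9-1 overlapped siControl. CDT1 fell by 0.45 with siTDRD9-2 (SE 0.0927, adjusted p = 0.00944), and its difference with siTDRD9-1 was -0.15 (adjusted p = 0.392). The call was lost without any 1 array but siControl replicate 1 (adjusted p = 0.00713 to 0.0515). The direction also turned with the probe set: another gave 0.29 with siTDRD9-2 (adjusted p = 0.101) and 0.41 with siTDRD9-1 (adjusted p = 0.0297), and the third -0.05 and 0.08 in those comparisons. Geminin (GMNN), the inhibitor of CDT1, had differences of -0.14 with siTDRD9-1 and -0.28 with siTDRD9-2 (adjusted p = 0.0628).

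DBF4, the activating subunit of CDC7, is measured by 7 probe sets, and 1 of them, singled out after its values were seen, fell with siTDRD9-1 (-0.57, adjusted p = 0.00508). The 7 differences lay between -0.57 and 0.29 with siTDRD9-1 and between -0.42 and 0.41 with siTDRD9-2, and the brightest gave -0.04 and -0.02 in these comparisons.

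Of the genes for single-strand binding and Okazaki fragment maturation, RPA1 rose with both siRNAs. RPA1, the large subunit of the RPA heterotrimer that coats single-stranded DNA, read 11.07, 11.05 and 11.04 in siTDRD9-1 cultures, 11.06, 11.00 and 11.00 in siTDRD9-2 cultures and 10.42, 10.63 and 10.60 in siControl cultures. All 6 knockdown arrays lay above the siControl arrays, between 11.00 and 11.07. The difference was 0.51 with siTDRD9-1 (1.42-fold, SE 0.0867, adjusted p = 0.00379) and 0.47 with siTDRD9-2 (1.39-fold, adjusted p = 0.00488), and siTDRD9-1 minus siTDRD9-2 was 0.04, with a 95% interval of -0.15 to 0.23. The siTDRD9-1 call was lost without siTDRD9-1 replicate 1 or 2 or any siControl array (adjusted p = 0.00429 to 0.0219), and the siTDRD9-2 call without siTDRD9-1 replicate 1 or any siTDRD9-2 or siControl array (adjusted p = 0.00577 to 0.02). The second RPA1 probe set, dimmer at a mean of 5.42, gave 0.31 with siTDRD9-1 and -0.10 with siTDRD9-2, neither passing.

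The other RPA subunits did not pass. RPA2 had differences of -0.13 with siTDRD9-1 and -0.09 with siTDRD9-2, and RPA3 of 0.04 and 0.06 in these comparisons. FEN1, the flap endonuclease, had the lowest mean difference of the group, -0.24 with siTDRD9-1 (adjusted p = 0.127) and -0.20 with siTDRD9-2 (adjusted p = 0.202). Its probe sets ranged up to 0.02 with siTDRD9-1 and 0.11 with siTDRD9-2.

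In the fork protection group, WDHD1 fell with siTDRD9-1 alone. WDHD1, the human counterpart of yeast Ctf4, which links the helicase to polymerase alpha, read 5.48, 5.60 and 5.48 in siTDRD9-1 cultures, 6.24, 6.31 and 6.11 in siTDRD9-2 cultures and 6.11, 6.18 and 6.43 in siControl cultures. The siTDRD9-1 arrays lay below all the others, and siTDRD9-2 and siControl overlapped. WDHD1 fell by 0.72 with siTDRD9-1 (60.6% of the siControl signal, SE 0.104, adjusted p = 0.00142), its siTDRD9-2 difference was -0.02 (adjusted p = 0.938), and siTDRD9-1 minus siTDRD9-2 was -0.70 (adjusted p = 0.00299). The first call was lost without siTDRD9-1 replicate 1 (adjusted p = 0.0107), and the last without siTDRD9-1 replicate 1 or siTDRD9-2 replicate 1 or 2 (adjusted p up to 0.0191). A second, dimmer probe set (mean 4.69) gave -0.34 with siTDRD9-1 and -0.20 with siTDRD9-2, neither passing. CLSPN, the claspin gene of the fork checkpoint, had the highest mean difference of the group, 0.16 with siTDRD9-1 and 0.03 with siTDRD9-2, and TIMELESS and TIPIN did not pass.

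Nucleotide supply was represented by both subunits of ribonucleotide reductase, which makes deoxyribonucleotides, and by thymidylate synthase. RRM1, the large catalytic subunit, read 10.06, 9.99 and 9.90 in siTDRD9-1 cultures, 10.64, 10.71 and 10.67 in siTDRD9-2 cultures and 10.69, 10.69 and 10.61 in siControl cultures. The siTDRD9-1 arrays were well below all the others, which overlapped. RRM1 fell by 0.68 with siTDRD9-1 (62.4% of the siControl signal, SE 0.083, adjusted p = 0.000541), its siTDRD9-2 difference was 0.01 (95% interval -0.17 to 0.20, adjusted p = 0.945), and siTDRD9-1 minus siTDRD9-2 was -0.69 (adjusted p = 0.00101). Both calls were kept without each of the 9 arrays in turn (adjusted p = 0.000724 to 0.00452 against siControl, and 0.00216 to 0.00701 between the siRNAs). The 3 other RRM1 probe sets gave -0.76, -0.77 and -0.58 with siTDRD9-1, and the siRNA difference passed at all 4 probe sets (highest adjusted p = 0.00784). The siTDRD9-1 call against siControl was lost when the most variable of these probe sets stood for the gene.

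RRM2, the small subunit whose level limits the enzyme in S phase, did not pass in any comparison. It read 12.26, 12.35 and 12.31 in siTDRD9-1 cultures, 11.94, 11.89 and 11.81 in siTDRD9-2 cultures and 12.03, 12.18 and 12.27 in siControl cultures. The siTDRD9-2 arrays were below all others. Its siRNA difference of 0.43 did not pass (adjusted p = 0.019), with 0.39 at its other probe set. Thymidylate synthase (TYMS) differed by -0.05 with each siRNA at its brightest probe set, whereas its other probe set gave 0.19 with siTDRD9-1 and 0.22 with siTDRD9-2.

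**Figure D4:**
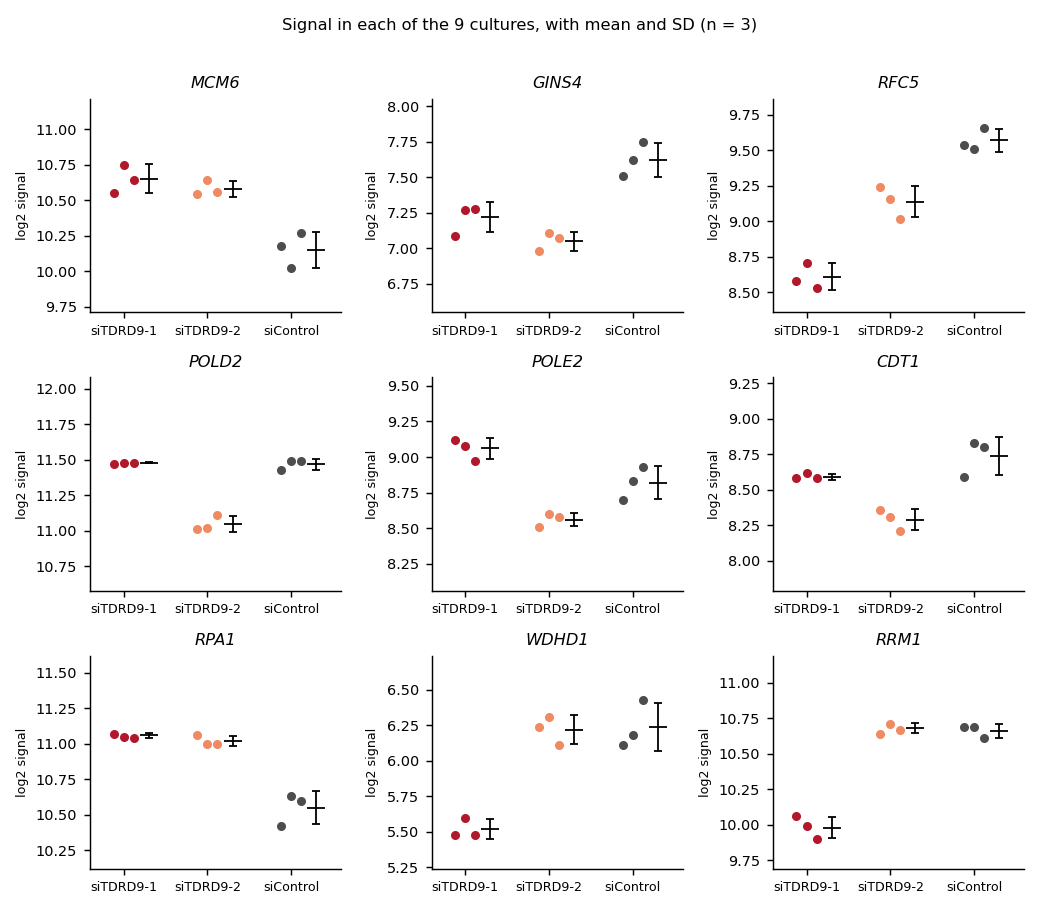
Points are the log2 signals of the 3 cultures of each group, siTDRD9-1, siTDRD9-2 and siControl, for the 9 genes that passed in any comparison, with the mean and SD beside them (each panel spans 1.5 log2 units). The siTDRD9-1 points of RRM1 and WDHD1 and the siTDRD9-2 points of POLD2 and CDT1 lie below all others of their gene, and both knockdown groups of MCM6 and RPA1 lie above siControl.

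Compared directly, the siRNAs gave different levels of 5 of the 50 genes. POLD2 and POLE2 were higher and RFC5, WDHD1 and RRM1 lower with siTDRD9-1 than with siTDRD9-2, or 4% and 6% of the genes against 1.27% and 1.11% of all genes. The median difference over the 50 genes was 0.00 (all genes 0.02), and 25 were positive and 25 negative. The arrays did not overlap for 11 genes higher and 9 lower with siTDRD9-1, or 22% and 18% against 12% and 13.2% of all genes. With a 2-fold demand as well, 0 of 50 passed (background 0.347%), and 14 genes had an unadjusted p under 0.05 (28%, against 21.3% of all genes). At an FDR of 0.05, 4 were higher and 4 lower, against 3.42% and 3.3% of all genes. TDRD9 itself was lower with siTDRD9-1 than with siTDRD9-2, so the extent of knockdown and the sequence of the siRNA cannot be told apart here.

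Across all 133 probe sets of the 50 genes, 2 rose and 8 fell with siTDRD9-1, or 1.5% and 6.02% against 2.38% and 2.22% of all single-gene probe sets. With siTDRD9-2, 2 rose and 5 fell, or 1.5% and 3.76% against 2.94% and 2.28%. Between the siRNAs 3 were higher and 7 lower with siTDRD9-1, or 2.26% and 5.26% against 1.04% and 0.914%, and 4 of those 7 are the probe sets of RRM1. In the 37 genes with several probe sets, the differences of 1 gene spanned a median of 0.27 with siTDRD9-1 and 0.32 with siTDRD9-2, and the widest span was that of RFC5, 1.53 with siTDRD9-1. Averaged over the probe sets of a gene, MCM6 (0.26) and WDHD1 (-0.53) no longer passed with siTDRD9-1, CDT1 (-0.07) no longer with siTDRD9-2, and RPA1 with neither (0.41 with siTDRD9-1, 0.19 with siTDRD9-2). RFC5 (-0.41) and RRM1 (-0.70) still passed with siTDRD9-1 and GINS4 (-0.37) and POLD2 (-0.44) with siTDRD9-2. Between the siRNAs the averaged RRM1, POLD2 and POLE2 passed, and RFC5 (-0.15) and WDHD1 (-0.42) did not.

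**Figure D5:**
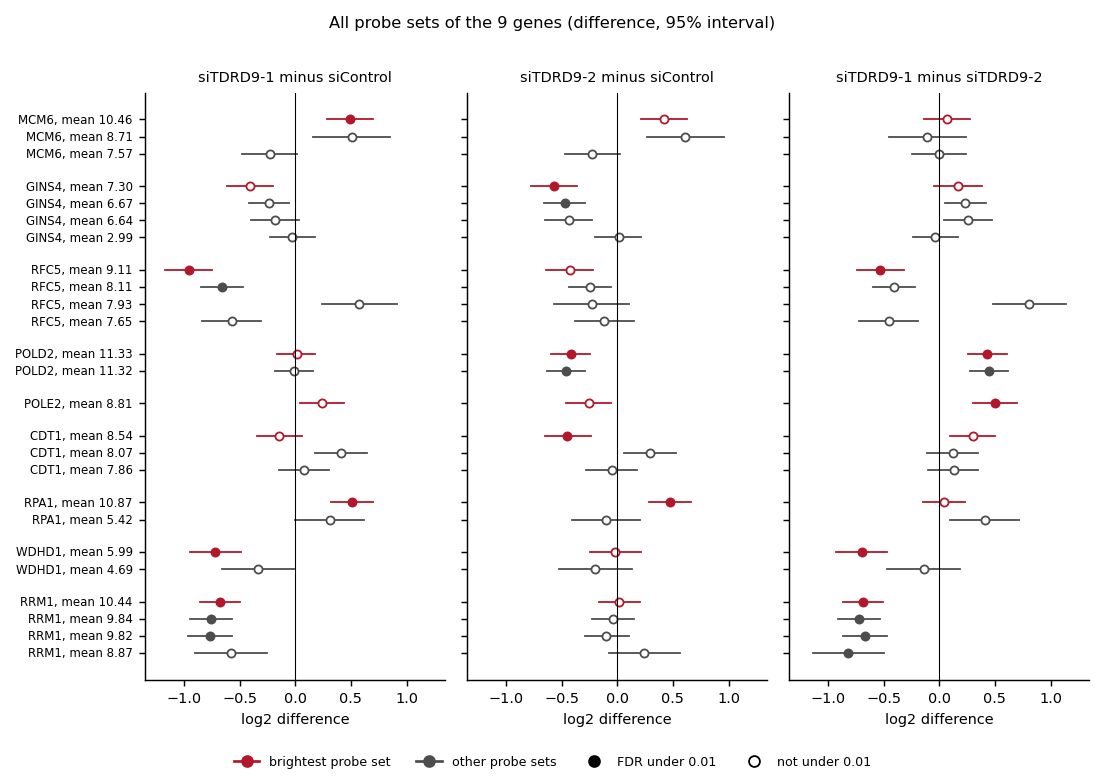
Each row is 1 probe set of the 9 genes, labelled with its mean log2 signal over the 9 arrays, and points and bars give the log2 difference and its 95% interval in the 3 comparisons (filled at an FDR under 0.01, red for the brightest). The 4 RRM1 rows lie together, between -0.77 and -0.58 with siTDRD9-1, whereas 1 of the 4 RFC5 rows lies at 0.57, opposite to the others.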

How the data were processed

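RNA of 9 NCI-H1993 cultures was measured on PrimeView arrays, 1 culture per array. The authors deposited log2 values per probe set, normalised together by RMA (Affymetrix Expression Console and limma are named in the submitters' notes, versions not given in the sources used here). These log2 values were used as deposited, after 102 array control probe sets were left out, and 49293 were tested. PrimeView annotation gives 1 gene for 44988 of these probe sets, several for 1832 and none for 2473, and only single-gene probe sets were named. No depth applies to arrays, so precision rests on the 3 cultures per group. The labels call them biological replicates, and the methods call the transfection experiments independent.

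limma 3.58.1 (R 4.3.3) fitted 1 model of 3 group means over the 9 arrays, with Benjamini-Hochberg adjustment over all probe sets. A call is an FDR under 0.01, and the methods' added 2-fold demand was counted beside it. Where a gene had several single-gene probe sets, the brightest on average over the 9 arrays stood for it. The fit was tested on simulated data.

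Genes were named when they passed in any comparison, had the highest or lowest mean difference in their role, or were the 3 nearest the threshold. Others are stated as singled out. The members and lists (sub-complexes, 4 further pathway lists, 5 marker lists) were chosen with earlier results of these data known. Alternatives were array weights, a replicate block, cyclic loess or median centring of the arrays, a variance trend, leaving out dim probe sets (mean under 5), an FDR of 0.05, other probe set choices, the spike-in slope as a covariate, fits of the compared groups only and leaving out each array.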

Additional observations from a re-analysis of the deposited data

Results flagged for a closer look

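The effects of the siRNAs differed, by limma's test of siTDRD9-1 minus siTDRD9-2, for 5 replication genes. RRM1 was lower with siTDRD9-1 by -0.69, WDHD1 by -0.70 and RFC5 by -0.53, while POLE2 was higher by 0.50 and POLD2 by 0.43 (log2, adjusted p = 0.00101, 0.00299, 0.00817, 0.00909 and 0.00986 in this order). The 3 siTDRD9-1 arrays lay wholly on 1 side of the 3 siTDRD9-2 arrays for each of the 5. Because the genes were picked by a test on these same arrays, this is no separate support. Of all genes, 12% lay wholly higher and 13.2% wholly lower. The POLD2 and POLE2 calls were lost without any 1 of the 9 arrays, and the RFC5 call without any 1 but siTDRD9-2 replicate 3. WDHD1 was lost without siTDRD9-1 replicate 1 or siTDRD9-2 replicate 1 or 2, and RRM1 was kept throughout.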

How the results depend on the processing

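Of 17 calls (TDRD9 and the named genes) under 20 alternatives, 220 of 340 were kept, 119 lost and 1 turned round (CDT1 with siTDRD9-2, 0.29 at its most variable probe set), and 36 were gained elsewhere. The RRM1 difference between the siRNAs was kept in all 20. For the counts of genes below, the share of all genes was computed only in the main setting and at an FDR of 0.05. Under the other alternatives the counts therefore cannot show whether the replication genes differed from all genes. With siTDRD9-1, 2 genes rose: 1 with the replicate block, median centring or the most variable probe set, 4 with array weights, and 0 with gene means, the spike-in covariate or a fit of the compared groups. The 3 that fell became 10 with array weights, 5 without dim probe sets, 8 at an FDR of 0.05 and 0 with the covariate, and the median of -0.09 became 0.00 with gene means and 0.05 at the most variable probe set. With siTDRD9-2, the 1 that rose became 2 with the variance trend, array weights, without dim probe sets, at an FDR of 0.05 or at the most variable probe set, and 0 with the block, the covariate or the compared groups. The 3 that fell became 1 with the block or the compared groups, 7 with the trend, 6 with array weights or an FDR of 0.05 and 0 with the covariate, and the median of -0.07 became 0.03 at the most variable probe set. Between the siRNAs, the 2 higher became 4 with array weights, an FDR of 0.05 or gene means and 0 with the block, centring, the covariate or the compared groups, and the 3 lower became 6 with array weights and 1 in the compared groups. That median of 0.00 became -0.02 with array weights, centring, gene means or the most variable probe set, 0.04 with cyclic loess and -0.01 with the covariate. In limma with the covariate, an unadjusted p under 0.05 was reached by 7 genes with siTDRD9-1, 3 with siTDRD9-2 and 13 between the siRNAs (13 to 29, 12 to 22 and 10 to 19 under the other settings that used all groups), and the members' median SE for siTDRD9-1 was 0.164, against 0.0944 without it. Leaving out each array gave 0 to 2 higher, 2 to 3 lower and a median of -0.13 to -0.06 with siTDRD9-1, 0 to 1 higher, 0 to 2 lower and -0.10 to -0.04 with siTDRD9-2, and 0 higher, 1 to 3 lower and 0.00 to 0.02 between the siRNAs. The count lower with siTDRD9-2 was 0 without siTDRD9-2 replicate 1 or 2 or siControl replicate 2 or 3. The methods describe 3 independent transfection experiments, and whether the replicate numbers pair the cultures by experiment is not settled here. Same-numbered arrays deviated from their group means with r = -0.15 to 0.15, others with r = -0.255 to 0.169. With 3 arrays per group these correlations cannot show whether a pairing was present, and the replicate block above allows for one. The number of arrays limits the precision, and the median SE of the 50 genes was 0.0944 in each comparison. The 95% interval of the difference lay within 1.5-fold for 39 of the 50 genes with siTDRD9-1, 43 with siTDRD9-2 and 41 between the siRNAs. Of all genes, 85.4%, 84% and 85.6% did so in this order. These counts depend on the size of the differences as well as on the precision.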

Other observations

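Genes around the fork were read from 4 further lists, each at its brightest probe set. Their calls, like those of the markers, were not refitted with an array left out, with the spike-in covariate or under the other alternatives. Of all genes, 1.25% were higher and 2.8% lower at an FDR of 0.01 with siTDRD9-1, and 1.32% and 3.03% with siTDRD9-2, while 23% had an unadjusted p under 0.05 with siTDRD9-1 and 23.5% with siTDRD9-2. Of 27 other replication factors, TOP2A, the topoisomerase that resolves replicated DNA, rose with both siRNAs. It read 11.34, 11.32 and 11.39 in siTDRD9-1, 11.27, 11.29 and 11.28 in siTDRD9-2 and 10.66, 10.79 and 10.44 in siControl cultures, differences of 0.72 (adjusted p = 0.000948) and 0.65 (adjusted p = 0.00151) with no overlap. The other calls in that list came with siTDRD9-2 and were singled out after their values were seen: SSRP1, a subunit of the histone chaperone FACT, fell by 0.78 (adjusted p = 0.000312) and CHTF18, of an alternative clamp loader, by 0.53 (adjusted p = 0.00871). SSRP1 was also higher with siTDRD9-1 than with siTDRD9-2 by 0.54 (adjusted p = 0.0052). The list's median was -0.06 with each siRNA.

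Of 14 measured nucleotide metabolism genes 0 passed with siTDRD9-1 by limma (5, or 35.7%, had an unadjusted p under 0.05, against 23% of all genes) and 1 fell with siTDRD9-2, the deoxycytidine kinase gene DCK (-0.48, adjusted p = 0.00393). Of 22 E2F and G1/S regulators 0 passed with siTDRD9-1 (7, or 31.8%, had an unadjusted p under 0.05), while with siTDRD9-2 E2F5 rose by 0.80 (adjusted p = 0.000392) and E2F7 fell by 0.69 (adjusted p = 0.00802), these 3 genes also singled out after their values were seen. Of 12 replication checkpoint kinases and mediators 0 passed with either siRNA (3 with siTDRD9-1 and 4, or 33.3%, with siTDRD9-2 had an unadjusted p under 0.05, against 23% and 23.5% of all genes). The medians with siTDRD9-1 and siTDRD9-2 were -0.10 and -0.03 for nucleotide metabolism, -0.13 and -0.13 for E2F and G1/S regulators, and -0.12 and -0.01 for the checkpoint list. The siTDRD9-1 and siTDRD9-2 comparisons share the siControl arrays.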
